A study of Arabidopsis thaliana with 18 samples.

Results

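The transcripts described here encode proteins of the ribosome. They were found in the deposited ATH1 annotation as probe sets that are not controls, whose gene title contains "ribosomal protein" and whose name ends in _at without the _s or _x that marks probes shared between genes. This gave 38 probe sets for 38 nuclear genes, out of 22746 probe sets that are not controls. A gene title is given for 7550 probe sets of the array. By compartment, 21 members belong to the cytosolic ribosome, 12 to the plastid ribosome and 5 to the mitochondrial ribosome. The subunit in the title alone separates only 5 of them, 3 as cytosolic (40S or 60S) and 2 as organellar (30S or 50S), so a compartment word in the title was used for 6 and the Gene Ontology cellular component for 27. A further 262 probe sets carry the Gene Ontology function of a structural constituent of the ribosome without being members, and they served as a comparison.

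A plant leaf cell runs 3 kinds of ribosome. The cytosolic ribosome translates all nuclear messages and is built from proteins whose genes form families of near-identical paralogs. The plastid and mitochondrial ribosomes are of bacterial descent and translate the few messages of their own organelle, and many of their proteins are encoded in the nucleus and imported. Ribosomal proteins of the cytosol are made in step with ribosomal RNA in the nucleolus, and their synthesis takes a large share of the resources of a growing cell.

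The samples were total RNA of Arabidopsis thaliana leaves, 1 sample on each of 18 one-colour Affymetrix arrays, 3 in each of 6 groups. The wild type Col-0 was sampled as an unwounded control, 1 h after wounding and 6 h after wounding. The same conditions were sampled from plants, here called OE, that over-express StZFP2, a zinc finger protein gene of potato. OEEV47-1 and OEEV47-2 are the OE lines. They are pooled in the sample labels but named separately in the series design, and neither gives the promoter of the transgene. There was no labelled group of unwounded leaves taken at 6 h, so the effect of the wound and of the time of day cannot be told apart at 6 h. Whether replicates A, B and C were different plants is not stated. The p-values therefore rest on the spread of these samples alone, and that spread may be technical.

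The deposited values are MAS5 signals on a linear scale, with array medians of 127 to 161. All 5 mesophyll markers of the leaf were above the 40th percentile on 18 of 18 arrays, while 3 of 4 root markers and 2 of 3 floral markers were below it on every array. Each of the 9 Col-0 arrays was most like another array of its own label. Of the 9 OE arrays, 6 were most like an array with another treatment label: across 14823 probe sets, the OE 6 h array C correlated at 0.98 with the OE control array B and at 0.89 with its best match under its own label. The arrays were kept as labelled, the Col-0 comparisons were fitted on the 9 Col-0 arrays alone, and every statement on OE refers to the labels. In leaf RNA, a lower signal from fewer cells of a type and from less RNA per cell cannot be told apart.

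Of the 38 members, 37 were above the 40th percentile on 18 of 18 arrays and were tested. The exception was RPL12-B (AT3G27840), a plastid gene for the stalk protein L12, whose signals of 23.9 to 78.1 were below that percentile on every array. Signals of different probe sets depend on their probes and are not compared with each other. Over the 18 arrays, the highest signal of a cytosolic member was 1.29 to 3.32 times its lowest, with a median of 1.78. The widest of these ranges belonged to RPSAb and the narrowest to RPS18C. The corresponding range of folds was 1.29 to 2.46 for the plastid members and 1.40 to 2.48 for the mitochondrial members.

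On most arrays the cytosolic members stood high or low together. On the Col-0 arrays at 1 h, 3, 3 and 1 of the 21 were below their own mean over the 9 Col-0 arrays. On the Col-0 arrays at 6 h the numbers were 18, 18 and 11, so arrays A and B stood low and array C lay in the middle. On the unwounded Col-0 arrays they were 3, 8 and 18, and array C of the controls stood low. The median of the 21 relative to that mean was 0.15, 0.07 and 0.18 at 1 h, -0.24, -0.22 and -0.004 at 6 h, and 0.13, 0.06 and -0.13 in the controls on the log2 scale. The 1 h and 6 h groups did not overlap in this median, while the controls overlapped with both. The plastid members had medians of 0.07, -0.15 and 0.02 at 1 h and -0.04, -0.13 and 0.02 at 6 h, and these groups overlapped.

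**Figure D1:**
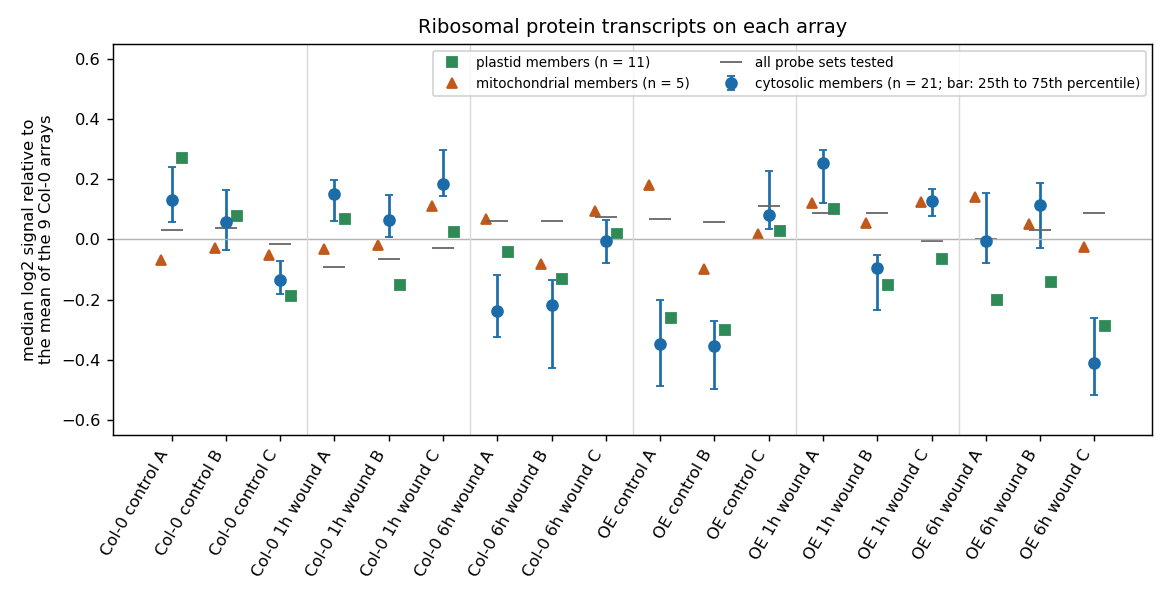
Median log2 signal of the cytosolic (circles, bars from the 25th to the 75th percentile of 21 members), plastid (squares, 11 members) and mitochondrial (triangles, 5 members) ribosomal protein probe sets on each of the 18 arrays, relative to each probe set's mean over the 9 Col-0 arrays; dashes give the median of all 14823 probe sets tested. Cytosolic members are lowest in Col-0 on the 6 h arrays A and B, and lowest of all on the arrays labelled OE control A, OE control B and OE 6 h C.

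The first comparison asks what changed in wild-type leaves 1 h after the wound. No ribosomal protein transcript passed the test. Of the changes, 17 of 21 cytosolic changes were above 0 with a median of 0.10, 3 of 11 plastid changes were above 0 with a median of -0.05, and the 5 mitochondrial members had a median of 0.05, against -0.09 over all probe sets. The cytosolic median was above 0 under all 20 other settings. The plastid median became 0.07 with array medians subtracted, 0.01 without the 1 h array B and 0.02 without the unwounded array A, and the mitochondrial median became -0.01 without the 1 h array C. With limma, 0 of 37 members had an adjusted p below 0.05, against 5.84% of all 14823 probe sets; 3 members and 3108 of all probe sets had an unadjusted p below 0.05. The other 159 cytosolic probe sets annotated to the ribosome had a median change of 0.13 and 0 calls.

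The largest change at 1 h belonged to RPL18AA (AT1G29970), a gene for the large-subunit protein L18a. Its signals were 978, 898 and 931 in unwounded leaves and 1172, 1424 and 1154 at 1 h, which is 0.41 ± 0.13 in log2 terms (± SE; adjusted p = 0.0853 in limma). All 3 arrays at 1 h were above the 3 unwounded arrays, but the change did not pass after adjustment. By this criterion of no overlap, 4 of 37 members were higher and 0 lower at 1 h, against 1410 and 2249 of all 14823 probe sets. MRPL11 (AT4G35490), for protein L11 of the mitochondrial large subunit, had signals of 1893, 1887 and 1966 and then 2243, 2287 and 2305, a change of 0.25 ± 0.11 with a limma adjusted p = 0.218. Its groups did not overlap either. Nor did those of ATL5 and RPS10, which changed by 0.287 ± 0.135 and 0.373 ± 0.165 (limma adjusted p = 0.251 and 0.2205).

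The second comparison asks what differed between wild-type leaves 6 h after the wound and unwounded leaves. Among the members, RPSAb and SSR16 were lower and none was higher. Cytosolic members lay mostly below their unwounded levels, 17 of 21, with a median log2 change of -0.24, against 0.04 over all probe sets. The 11 plastid members had a median of -0.12, which became 0.05 without the unwounded array A. The 5 mitochondrial members had a median of 0.01, which became -0.06 with array medians subtracted. The background was high in this comparison: 29.0% of all probe sets were called in either direction and 13.6% were called lower, while 1 of 21 cytosolic and 1 of 16 organellar members were called lower. By the weaker criterion that the 3 arrays at 6 h all lay below the 3 unwounded arrays, 3 of 21 cytosolic, 1 of 11 plastid and 1 of 5 mitochondrial members qualified, against 18.9% of all probe sets. Over all 37 members these were 2 calls and 5 without overlap, both smaller shares than the background. The cytosolic count was 3 without the 6 h array C and 3 without the unwounded array C. The organellar count was 2 without the unwounded array C and 0 without any 1 of the other 8 Col-0 arrays. Shares over all probe sets were not counted with an array left out.

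RPSAb (AT3G04770), a gene for the SA protein of the small subunit, had signals of 499, 395 and 318 in unwounded leaves, 354, 351 and 389.8 at 1 h and 169, 188 and 248 at 6 h. All arrays at 6 h were below all arrays of the other Col-0 groups, which overlapped with each other. Its means were 404 ± 91.1 unwounded and 202 ± 41.2 at 6 h (SD, n = 3 arrays each), and it fell by 1.00 ± 0.19 on the log2 scale (SE; limma adjusted p = 0.00214). SSR16 (AT4G34620), for protein S16 of the plastid small subunit, had signals of 19283, 17592 and 15601 in unwounded leaves, 17340.0, 18367 and 17945 at 1 h and 14063, 14367 and 14079 at 6 h. The 6 h arrays lay close together and below all others in Col-0. It fell by 0.30 ± 0.10 on the log2 scale against unwounded leaves (limma adjusted p = 0.0471), a call that was kept under 7 of 21 other settings, with adjusted p from 0.0119 to 0.201.

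The third comparison sets the late wound state of the wild type against the early one, 6 h against 1 h. Here 6 of 21 cytosolic transcripts fell and none rose. Passing or not, 19 of 21 cytosolic changes were below 0, against 40.9% of those over all probe sets, with a median log2 change of -0.33 and a median fold of 0.796. The exceptions were rps15ab and rps15ae. The plastid and mitochondrial members had medians of 0.01 and -0.04. The median over all 14823 probe sets was 0.13, so the cytosolic members were low relative to the array as a whole by more than the change itself states. By mean signal, 17 of 21 cytosolic members were lowest at 6 h among the Col-0 groups, and 15 were highest at 1 h. Among the plastid members 4 of 11 were lowest at 6 h and 7 were highest in unwounded leaves.

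In limma, 6 of 21 cytosolic members were called lower and 0 higher, with 13 of 21 at an unadjusted p below 0.05. Of the organellar members 2 plastid and 1 mitochondrial were called lower and 0 higher. Over all probe sets 42.7% were called in either direction and 17.3% were called lower. By the weaker criterion, the 3 arrays at 6 h lay below the 3 arrays at 1 h for 14 of 21 cytosolic members, 1 of 11 plastid and 1 of 5 mitochondrial members, against 21.8% of all probe sets. When each array's median log2 signal was subtracted first, 17 of 21 cytosolic members were called lower. Array medians were 127 to 136 at 1 h and 148 to 154 at 6 h, so this step lowers the change of every probe set. The share of all probe sets called lower was not counted under this setting, and 17.3% is not its background. The cytosolic median became -0.53, and the plastid and mitochondrial medians became -0.19 and -0.23. The sign of the plastid median therefore changes with the scaling, and it was also below 0 without the 1 h array B, the 6 h array A or the 6 h array C. The mitochondrial median was above 0 without the 1 h array C or the 6 h array B, while the cytosolic median was below 0 with the array medians subtracted and, at -0.24, after quantile normalization. In the model of all 18 arrays 3 of 21 cytosolic, 2 of 11 plastid and 1 of 5 mitochondrial members were called lower, against 13.8% of all probe sets, so the cytosolic share is then close to the background.

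The number of cytosolic calls also depended on single arrays. It was 2 without the Col-0 6 h array A, 3 without the 6 h array B, 3 without the 1 h array C, 11 without the 6 h array C and 10 without the unwounded array C, and 10 in a model of the 6 arrays compared. The organellar count of 3 became 1 without the 1 h array B and 1 without the 1 h array C. The shares of all probe sets called were not counted under these settings, so these counts have no background beside them. The median stayed between -0.53 and -0.24 over the 20 settings for which it was recomputed. GAPDH 3′/5′ ratios, a measure of RNA integrity, were 1.61 to 1.84 at 1 h and 1.34 to 1.61 at 6 h, and actin ratios were 7.28 to 10.7 and 4.12 to 6.97. Their part in the result was not tested.

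**Figure D2:**
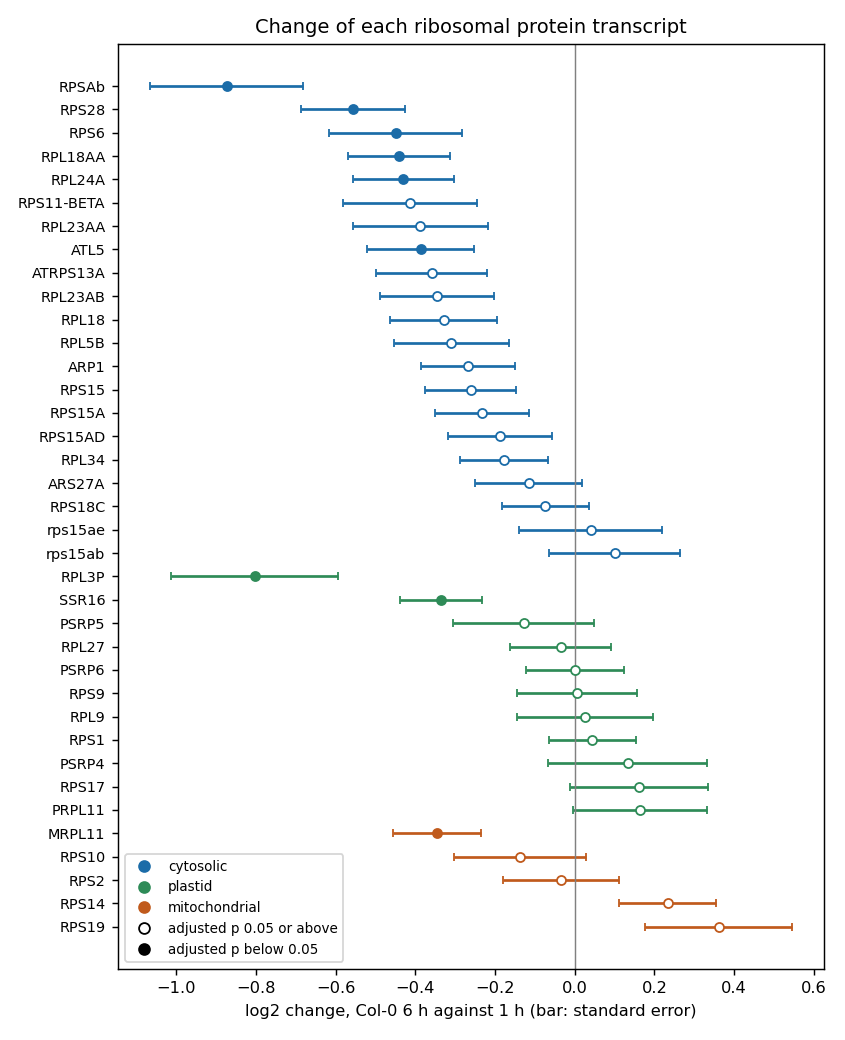
Log2 change of each of the 37 tested members in Col-0 leaves at 6 h against 1 h, ordered within the cytosolic, plastid and mitochondrial groups, with the standard error of the limma model as a bar; filled symbols have an adjusted p below 0.05. Of the 21 cytosolic members 19 lie below 0, while the plastid and mitochondrial members lie on both sides of it.

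RPSAb had the lowest change of the cytosolic members again and fell by 0.87 ± 0.19 on the log2 scale against 1 h (limma adjusted p = 0.00308). RPS28 (AT5G64140), for the small-subunit protein S28, had signals of 3141, 2704 and 2578 in unwounded leaves, 3111, 3342 and 3615 at 1 h and 2216, 2061 and 2585 at 6 h. Its 1 h and 6 h arrays did not overlap, and the unwounded arrays overlapped with both. It fell by 0.56 ± 0.13 (limma adjusted p = 0.00467). The calls of RPSAb and RPS28 in this comparison held under all 21 other settings tried.

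Among the large-subunit proteins, RPL18AA had signals of 856, 929.8 and 967 at 6 h. These were below the 1 h signals given above and overlapped with the unwounded ones, so that the transcript stood apart at 1 h alone. It fell by 0.44 ± 0.13 from 1 h to 6 h (limma adjusted p = 0.0154).

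RPL24A (AT2G36620), for protein L24, had signals of 5454, 6034 and 5154 in unwounded leaves, 5814, 5483 and 6482 at 1 h and 3949.7, 4234 and 5052 at 6 h. All 6 h arrays were below all other Col-0 arrays, and it fell by 0.43 ± 0.13 against 1 h (limma adjusted p = 0.0166). ATL5 (AT3G25520), for protein L5, which binds the 5S ribosomal RNA, had signals of 4358, 3749 and 3961, then 4723, 4721 and 5267, then 3556, 3274 and 4508. Its 1 h arrays were above all others in Col-0, and it fell by 0.39 ± 0.14 (limma adjusted p = 0.0358), a call lost under 9 of 21 other settings (adjusted p up to 0.146). Those of RPL18AA and RPL24A were lost under 2 and 4 of them.

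RPS6 and RPL3P, whose groups overlapped, and the OE results of RPL18AA and RPS14 below are outside the rule for naming genes and were chosen after their values were seen. The same holds for members described without a call, such as RPL18AA and MRPL11 at 1 h, except in the paralog families. RPS6 (AT4G31700), for the small-subunit protein S6, which is phosphorylated downstream of the TOR kinase, had signals of 4133, 3462 and 4571 at 1 h and 2795, 2619 and 3513 at 6 h. The highest 6 h array was above the lowest 1 h array. It fell by 0.45 ± 0.17 with a limma adjusted p = 0.0469, close to the threshold, and the call was lost under 9 of 21 other settings (adjusted p up to 0.174).

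Of the organellar members, RPL3P (AT3G17465), for protein L3 of the plastid ribosome, had signals of 432, 449 and 496 in unwounded leaves, 442, 702 and 692 at 1 h and 285, 314 and 449.7 at 6 h. The 1 h array A stood at the level of the unwounded arrays and below the 6 h array C, so the groups overlapped. It fell by 0.80 ± 0.21 against 1 h (limma adjusted p = 0.00862) and passed under all 21 other settings. SSR16 fell by 0.34 ± 0.10 (limma adjusted p = 0.0199), a call lost under 6 of 21 other settings (adjusted p up to 0.113). MRPL11 had signals of 1878, 1652 and 1856 at 6 h, all below its 1 h signals, and fell by 0.35 ± 0.11 (limma adjusted p = 0.0238), lost under 3 of 21.

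The remaining plastid members had small changes. PSRP4, PSRP5 and PSRP6, whose gene titles call them plastid-specific, changed by 0.13 ± 0.20, -0.13 ± 0.18 and 0.00 ± 0.12 on the log2 scale at 6 h against 1 h, and none passed. RPS1, for the plastid protein S1, changed by 0.04 ± 0.11. Among the mitochondrial members, RPS19 and RPS14 had changes above 0, 0.36 ± 0.18 and 0.23 ± 0.12, with limma adjusted p = 0.135 and 0.14.

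**Figure D3:**
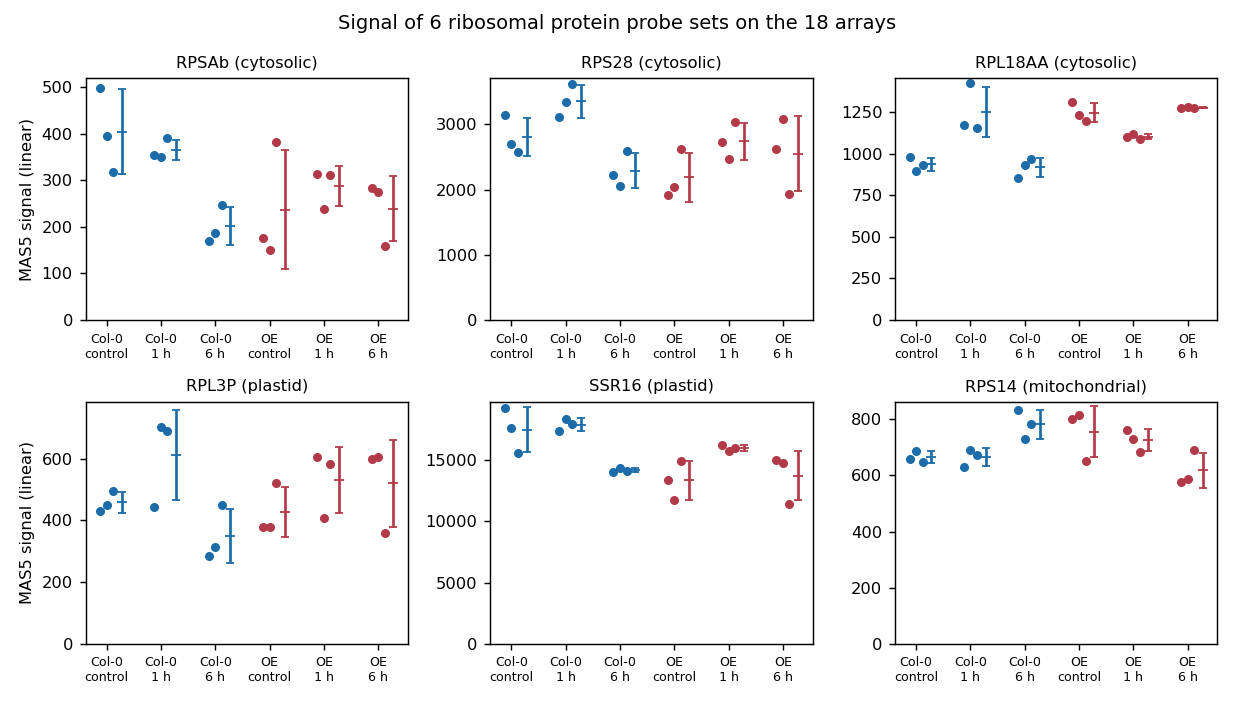
MAS5 signal on a linear axis of 6 members on the 18 arrays (points, arrays A to C from left to right; bars, mean and SD of 3 arrays), Col-0 in blue and OE in red. RPSAb is lowest in Col-0 at 6 h, RPL18AA stands apart in Col-0 at 1 h, and the OE controls of RPSAb range from 150.5 to 383.

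The other ribosome-annotated probe sets were also mostly lower where they belong to the cytosolic ribosome. At 6 h against 1 h, 84 of 159 cytosolic ones were called lower, against 17.3% of all probe sets, and 0 were higher. Their median log2 change was -0.40, and 143 of the 159 changes were below 0. Of 36 plastid ones 4 were lower and 2 higher, with a median of 0.09. Of 6 mitochondrial ones 0 were lower and 1 higher. At 6 h against unwounded leaves, 35 of the 159 cytosolic ones were called lower, against 13.6% of all probe sets, and 0 higher. Their median was -0.27, and of the plastid ones 2 were lower and 2 higher. In the model of all 18 arrays, 46 of the 159 cytosolic ones were called lower at 6 h against 1 h, against 13.8% of all probe sets. Against unwounded leaves that model called 6 of the 159 lower and 1022 of all 14823 probe sets, so the cytosolic share is then below the background.

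**Figure D4:**
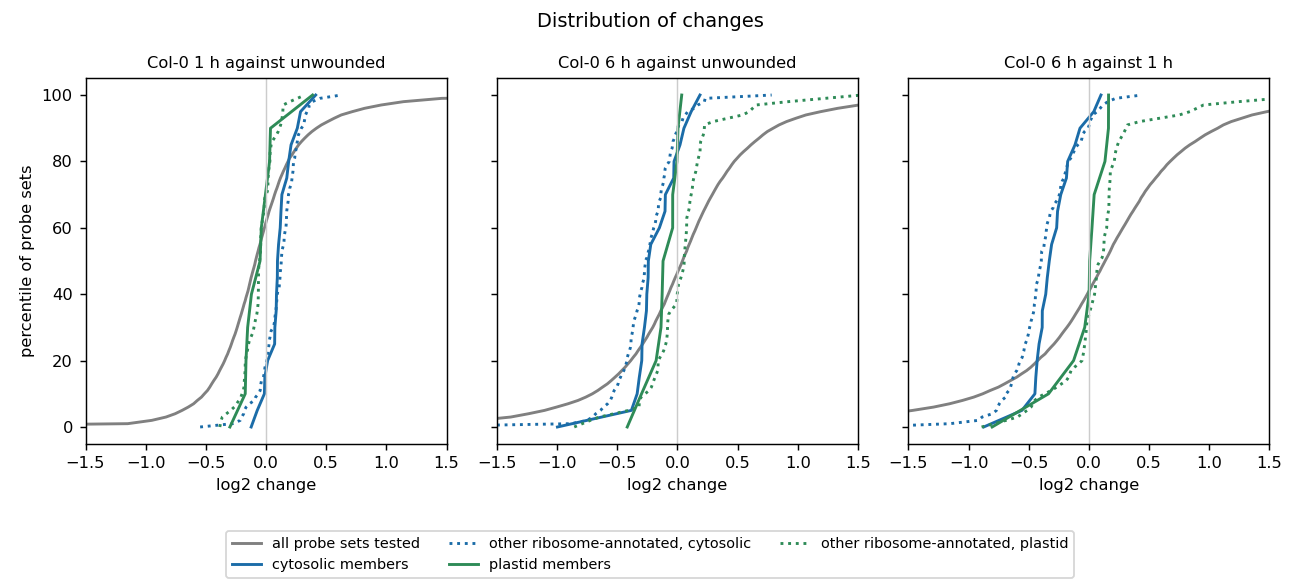
Percentiles of the log2 change in the 3 comparisons within Col-0 for all probe sets tested (grey), cytosolic members (solid blue), other ribosome-annotated cytosolic probe sets (dotted blue), plastid members (solid green) and other ribosome-annotated plastid probe sets (dotted green); the axis is limited to changes between -1.5 and 1.5. At 6 h against 1 h both blue curves lie left of the grey one, with medians of -0.33 and -0.40 against 0.13.

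Genes for other steps of ribosome production and translation were read from lists by gene title. All 4 nucleolar genes were called lower at 6 h than in unwounded leaves, against 13.6% of all probe sets. At 6 h against 1 h, 3 of the 4 were called lower, while over all probe sets 17.3% were called lower and 25.4% higher. FIB2, for fibrillarin, which methylates ribosomal RNA, fell by 1.12 ± 0.14 against 1 h in log2 terms (limma adjusted p = 6.28e-05). NOP56, a partner of fibrillarin in the same particle, fell by 0.80 ± 0.19 (limma adjusted p = 0.00474). OLI2, a nucleolar protein gene, fell by 0.84 ± 0.13 (limma adjusted p = 0.000294). FIB1 had a change of -0.33 ± 0.14 (limma adjusted p = 0.0767). The list of 4 elongation factors was not split by compartment. Against unwounded leaves 2 of them were lower, ATRABE1B at -0.316 ± 0.105 (limma adjusted p = 0.0403) and SCO1 at -0.633 ± 0.124 (limma adjusted p = 0.00234). LOS1 and emb2726 did not pass (limma adjusted p = 0.224 and 0.0700). At 6 h against 1 h 1 of 4 was lower: SCO1, the elongation factor G of plastids, fell by 0.59 ± 0.12 (limma adjusted p = 0.00219). Of 28 tested probe sets whose title contains the words translation initiation factor, 11 were lower and 2 higher at 6 h than at 1 h. The words also select other proteins: TFIIB, a general factor of RNA polymerase II, is among the lower ones at -0.63, and ZLL, an Argonaute protein gene, among the higher ones at 1.68. The lower ones include EIF3C at -0.72 ± 0.14 (limma adjusted p = 0.00151) and the RNA helicase gene EIF4A-2 at -0.57 ± 0.12 (limma adjusted p = 0.00195). Of 20 aminoacyl-tRNA synthetases 1 was lower and 0 were higher. In the model of all 18 arrays, 1022 of all 14823 probe sets were called lower at 6 h than in unwounded leaves. Among them were 1 of the 4 nucleolar genes, 0 of the 4 elongation factors and 2 of the 28 probe sets of the initiation list. At 6 h against 1 h these numbers were 3, 1 and 7, against 13.8% of all probe sets. The lists were not followed under the other settings.

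Markers of other cells were measured beside these changes. Of 7 markers of dividing cells 6 are on the array, 3 were above the 40th percentile on every array, and CYCB1;1 and STM were below it on every array. Their signals summed to 1589–1670.1 on the unwounded arrays, to 1025–1771 at 1 h and, at 6 h, to 1045–1476. TSO2, with means of 1204 unwounded and 809 at 6 h, makes up most of that sum and did not pass (limma adjusted p = 0.0937). PCNA1 rose by 0.66 at 6 h against unwounded leaves (limma adjusted p = 0.0158), and no other marker of dividing cells passed in Col-0. Of the mesophyll markers, PSAD2 rose by 0.98 at 6 h against 1 h (limma adjusted p = 0.000835) and the other 4 did not pass. The 3 guard cell markers were above the 40th percentile on every array, with sums of 583–874 unwounded, 546–629 at 1 h and 1055–1291 at 6 h. Of these, KAT1 changed by 1.79 at 6 h against 1 h (limma adjusted p = 1.64e-05), and MYB60 and FAMA changed by 0.03 and 0.11 and did not pass. On the OE arrays the guard cell sum was 903 to 1368. The part of these cells in the ribosomal protein changes was not tested.

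Paralogs of a cytosolic protein could be followed where their titles share a protein name. The widest spread of changes at 6 h against unwounded leaves was in the S15a family, with 4 genes and a range of 0.43 on the log2 scale. RPS15A had signals of 9307, 9369 and 7324 in unwounded leaves, 8379, 8309 and 8988 at 1 h and 7276, 7541 and 7010.5 at 6 h, a change of -0.24 ± 0.12 at 6 h. Its 6 h arrays were below the 1 h arrays and overlapped with the unwounded ones.

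The paralog rps15ab had signals of 206, 168 and 171, then 167, 194 and 219, then 199.6, 208 and 211, a change of 0.19 ± 0.16, and all 3 groups overlapped. RPS15AD and rps15ae changed by 0.02 ± 0.13 and 0.05 ± 0.18. None of the 4 passed, and the difference between paralogs was not tested. In the L5 family, with a range of 0.28, ATL5 changed by 0.29 ± 0.14 and RPL5B by -0.07 ± 0.14 at 1 h against unwounded leaves, and by -0.10 ± 0.14 and -0.38 ± 0.14 at 6 h. RPL23AA and RPL23AB, the L23a pair, had a range of 0.07 and changed by -0.29 ± 0.17 and -0.22 ± 0.14 at 6 h. Probe sequences were not analysed here, so signal shared between near-identical paralogs cannot be separated.

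**Figure D5:**
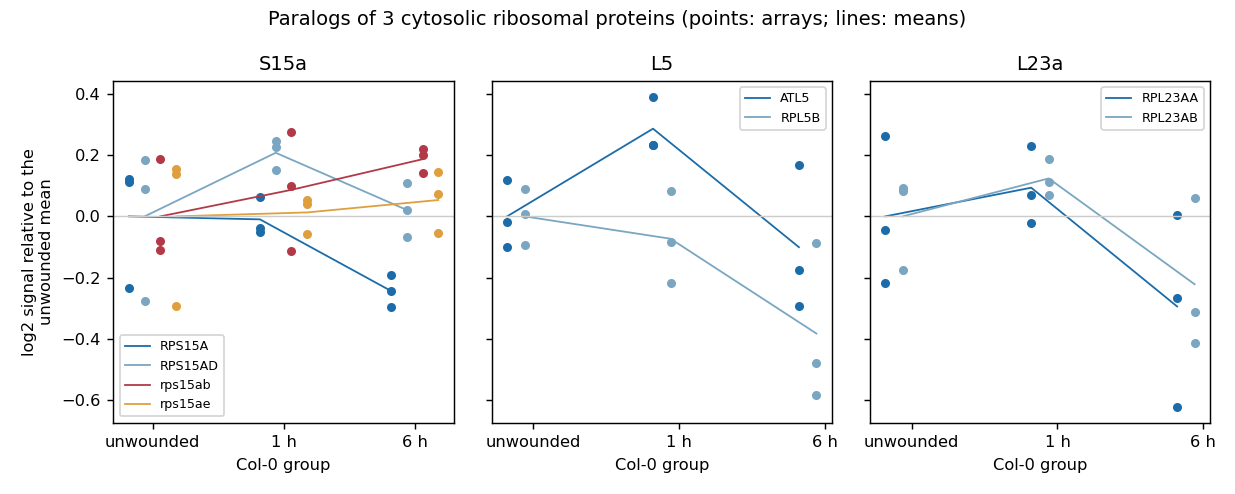
Log2 signal of the paralogs of S15a, L5 and L23a on the 9 Col-0 arrays (points) and group means (lines), relative to each gene's unwounded mean. The RPS15A mean lies at -0.24 and that of rps15ab at 0.19 at 6 h, while the L23a pair lies at -0.29 and -0.22.

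The fourth comparison sets OE against Col-0 over the 3 treatment labels. The cytosolic members had a median log2 difference of -0.06 and the plastid members of -0.15, with 16 of 21 and 10 of 11 differences below 0, and the mitochondrial members of 0.03, against 0.05 over all probe sets. RPL18AA was higher, and no other member passed. That is 1 of 21 cytosolic and 0 of 16 organellar members in limma, against 4.84% of all probe sets; 3 of the organellar members had an unadjusted p below 0.05. The cytosolic count was 2 without the OE 1 h array C, stayed at 1 without the Col-0 1 h array B or the OE control array C, and was 0 without any 1 of the other 15 arrays. The organellar count was 2 without the unwounded Col-0 array C and 1 without the OE control array C. Without the OE arrays lettered C, 2 cytosolic members were higher and 1 lower, and 1 organellar member was lower. For these counts with arrays left out, the share over all probe sets was not counted.

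RPL18AA had signals of 1309.8, 1234 and 1196 on the arrays labelled OE control, 1099, 1117 and 1087 on those labelled OE 1 h and 1276, 1282 and 1274 on those labelled OE 6 h. The OE arrays were above the Col-0 arrays in the unwounded and 6 h groups and below them at 1 h, without overlap in each. The log2 difference over all labels was 0.24 ± 0.06 (limma adjusted p = 0.0427). This call was lost under 19 of 30 other settings. The plastid genes PSRP4, PSRP5 and SSR16 had differences of -0.32 ± 0.12, -0.29 ± 0.10 and -0.20 ± 0.07, with limma adjusted p = 0.127, 0.0994 and 0.091. RPSAb had signals of 177, 150.5 and 383 on the OE controls, 314, 237 and 312 at OE 1 h and 284, 275 and 159 at OE 6 h. The OE controls A and B, the OE 1 h array B and the OE 6 h array C lay in or below the range of Col-0 at 6 h, and the other 5 lay above it.

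For the cytosolic members as a group, the OE controls A and B and the OE 6 h array C were the lowest arrays. Their medians relative to the Col-0 mean were -0.35, -0.35 and -0.41, with 19, 18 and 18 of 21 members below that mean. The other 6 OE arrays had medians of -0.09 to 0.26, and on the OE 1 h array B 19 of 21 members were below the mean. The OE controls A and B were most like each other and the OE 6 h array C was most like control B.

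The last comparison asks whether the change after wounding differed between OE and Col-0, tested as an interaction. At 1 h 0 of 37 members passed in limma, as did 0% of all probe sets, and 1 member had an unadjusted p below 0.05. That member was RPL18AA, with a difference of -0.59 ± 0.16 (limma adjusted p = 0.388).

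At 6 h 0 of 21 cytosolic members passed in limma, with 3 at an unadjusted p below 0.05, and 1 of 16 organellar members passed, against 23.3% of all probe sets. The median difference was 0.33 for the cytosolic members, with 19 of 21 above 0, 0.12 for the plastid and -0.02 for the mitochondrial members, against -0.09 over all probe sets. RPSAb had the highest value, 1.09 ± 0.43 (limma adjusted p = 0.0761). The member that passed was RPS14 (AT2G34520), for protein S14 of the mitochondrial small subunit. Its signals were 659, 688 and 647 unwounded and 832, 729 and 784 at 6 h in Col-0, and 801, 815 and 652 and 577, 587 and 689 under the same labels in OE. The Col-0 arrays were higher at 6 h than unwounded without overlap, and the OE arrays overlapped because array C lay on the opposite side in both groups. The interaction was -0.52 ± 0.17 on the log2 scale (limma adjusted p = 0.041). Without the OE control array C, 2 cytosolic members were called higher. Without the OE 6 h array C, 3 cytosolic members were called higher, and 2 organellar members were called higher and 1 lower. The share of all probe sets called was not counted without these arrays. The call of RPS14 held under 10 of 26 other settings, with limma adjusted p from 0.0122 to 0.104.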

How the data were processed

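The authors deposited 1 signal intensity per probe set and array, calculated with MAS5 per the submitters' processing notes (version not stated), on a linear scale. The deposited annotation table holds 90 further columns of values whose names do not state the sample, and these were not used. Gene names, titles and Gene Ontology terms are those of that table. No genome build is named, so no coordinates are given.

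Intensities were taken to log2 as deposited. Probe sets at or above the 40th percentile of their array on at least 3 of 18 arrays were tested, 14823 in all. Comparisons within Col-0 used limma 3.58.1 (R 4.3.3; eBayes with trend) on the 9 Col-0 arrays, and those with OE used all 18 arrays. P-values were adjusted by Benjamini-Hochberg over all probe sets tested, with a threshold of 0.05. The fit was tested on simulated data. The number of arrays limits the precision.

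The members, gene lists and tests were chosen with earlier results of these data known. The compartments by Gene Ontology and the list of other ribosome-annotated probe sets were chosen after the annotation was read, because the title alone left 33 members without a class. Genes were named if called, found at 1 locus and without overlap between arrays, up to 6 in each direction. Members outside this rule are also described, and the paralog families were taken by the range of their changes at 6 h against unwounded leaves. Alternatives were quantile normalization, subtraction of array medians, log2 of signal + 16, no filter or the 60th percentile, no trend, the replicate letter as a block, other sets of arrays, and each array left out in turn.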

Additional observations from a re-analysis of the deposited data

Results flagged for a closer look

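RPS14, a mitochondrial ribosomal protein gene, had a change at 6 h after wounding that differed between OE and Col-0. The test of the difference itself, the interaction in limma, gave -0.52 ± 0.17 on the log2 scale with an adjusted p = 0.041. The mean signal was 665 ± 20.8 in unwounded and 782 ± 51.5 in 6 h Col-0 leaves, and 756 ± 90.4 and 618 ± 62.3 under the same labels in OE (SD, n = 3 arrays each). On the arrays lettered C of OE the signals lay on the opposite side of those of A and B in both groups.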

How the results depend on the processing

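No change of a member called in the main fit and no cytosolic median changed direction under the alternatives run. Member changes that did not pass, and single genes outside the members, were not followed through all of these alternatives. Plastid medians within Col-0 crossed 0, from -0.22 to 0.07 at 1 h, -0.29 to 0.05 at 6 h against unwounded and -0.19 to 0.11 at 6 h against 1 h. Mitochondrial medians crossed 0 as well, from -0.01 to 0.17, -0.06 to 0.14 and -0.23 to 0.09 in the same order, and from -0.05 to 0.06 for OE. With array medians subtracted, cytosolic calls were 1 at 1 h against unwounded, 6 at 6 h against unwounded and 17 at 6 h against 1 h, 0 for OE against Col-0, and organellar calls in the 6 h interaction were 0. Shares over all probe sets were not counted under this setting or any other that refits the data, except the model of all 18 arrays. At 6 h against 1 h, cytosolic calls were 3 with all 18 arrays, 10 with only the 6 arrays compared and 2 of 3 members classed by title alone, a setting added after the data had been seen. By title alone, organellar calls were 0 of 2 members in both 6 h comparisons and in the 6 h interaction. The organellar call at 6 h against unwounded became 0 with all 18 arrays, only 6 arrays, no filter, no trend and quantile normalization, and that in the 6 h interaction became 0 with no filter. For OE against Col-0, cytosolic calls were 0 after quantile normalization or without a treatment term, and 3 without the OE arrays lettered C, where organellar calls were 1. With the replicate letter as a block, cytosolic calls were 2 at 6 h against unwounded, 7 at 6 h against 1 h and 0 for OE, and organellar calls were 0 at 6 h against unwounded, 3 at 6 h against 1 h and 0 in the 6 h interaction. Arrays with the same letter did not deviate together from their group means (r from -0.0762 to 0.0989 over Col-0 groups). The labels do not say whether the letters pair samples, and these correlations with 3 arrays a group cannot decide it. Leaving out 1 array at a time, cytosolic calls ranged from 2 to 11 at 6 h against 1 h, 1 to 3 at 6 h against unwounded, 0 to 2 for OE and 0 to 3 in the 6 h interaction. Organellar calls ranged from 1 to 3, 0 to 2, 0 to 2 and 0 to 3 in the same order. Of the single-gene results, 128 of the checks other than leaving out 1 array at a time held and 24 lost the call. These include settings with fewer arrays, such as only the 6 arrays compared or no OE arrays lettered C. With 1 array left out, 77 held and 58 lost it. The cause was not tested. With 3 arrays a group, a change that did not pass is not shown to be absent.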
